A study of Capra hircus with 25 samples.

Results

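The miR-379 to miR-656 cluster of the imprinted DLK1-DIO3 locus was followed in the liver of goat kids over the first 12 weeks of life. A microRNA (miRNA) is a short RNA cut from a hairpin precursor, and either arm of the hairpin, 5p or 3p, can be kept as the mature molecule that represses messenger RNAs. The cluster was taken as every goat-named (chi-) or sheep-named (oar-) table entry whose miR number belongs to it, on either arm and with any letter suffix. This gave 78 of the 463 entries, 61 with goat and 17 with sheep names, from 48 named hairpins. Of the 39 miR numbers in the rule 37 had an entry, and miR-300 and miR-889 had none. The RefSeq gene table for the goat assembly ARS1.2 lists 38 hairpins from MIR379 to MIR656 in 1 run on 1 chromosome, between DLK1 and DIO3, and all 38 had at least 1 entry.

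The samples were livers of Laiwu black goat kids (Capra hircus) taken 1 day after birth or at an age of 2, 4, 8 or 12 weeks, with 5 libraries for each age and 25 in all. No treatment, genotype or sex is given in the labels, and all groups share the breed and the tissue. The values are normalised read counts on a reads-per-million scale (RPM). Worked back from the step between values, a library had 7169464 to 12096213 miRNA reads, with 60114 to 236398 of them in the cluster. These recovered reads give the depth only and were not accepted as counts for testing. The labels do not state that each library is a different kid, so p-values reflect only how far these libraries scatter, and some of that scatter may be technical.

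The locus is imprinted: in mammals its small RNAs come from the maternal chromosome, while the protein-coding genes DLK1, RTL1 and DIO3 are expressed from the paternal one. The cluster's hairpins are cut from 1 long maternal transcript, and the locus is best known for its activity in placenta, fetal tissues and brain. In mice, pups that lack the maternal copy of this cluster adapt poorly to the change from placental to milk feeding, with a fault in liver gluconeogenesis. In mouse liver, miR-379 is also induced by glucocorticoids and acts on blood lipids.

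The tissue label was checked against miRNAs known from liver cells. The hepatocyte list (miR-122, miR-192, miR-194 and miR-148a, all present) took 25.9% ± 1.56 of miRNA reads at 1 day and 27.4% ± 1.72 at 12 weeks (SD, n = 5). Over the same span the striated muscle list (6 of 6 miRNAs present) went from 0.0637% to 0.215% of reads at 1 day to 0.61% to 1.34% at 12 weeks. Most of that sum was miR-1 (1144 to 9221 RPM, adjusted p = 3.81e-08, limma). Also called higher were miR-133a-3p (49.6 to 395 RPM, adjusted p = 1.29e-08), miR-133a-5p (1.62 to 8.84 RPM, 9.58e-06) and miR-133b (0.19 to 2.53 RPM, 2.54e-05, limma). Of the same list miR-499-5p fell from 48.9 to 18.9 RPM (adjusted p = 3.69e-07, limma). miR-206 was not called (0.392 and 2.49 RPM, adjusted p = 0.0821, limma). The leukocyte list (5 of 6 present, miR-142 not among the entries) went from between 0.167% and 0.264% to between 0.282% and 0.426%. Its members differed: miR-146a (1203 to 2026 RPM) and miR-150 (48.4 to 236 RPM) rose (adjusted p = 0.0246 and 8.73e-08, limma). Not called were miR-223-3p (171 and 256 RPM, adjusted p = 0.127), miR-342-3p (667 and 669 RPM, adjusted p = 0.972) and miR-155-5p (166 and 149 RPM, adjusted p = 0.510, limma). The erythroid list (2 of 3, miR-486 not among the entries) lay at 0.136% to 0.214% and then at 0.27% to 0.431%. Its rise was that of miR-451-5p (1486 to 3258 RPM), while miR-144-5p fell from 91.5 to 66.0 RPM (adjusted p = 0.0439, limma) and miR-144-3p had 60.0 and 38.6 RPM (adjusted p = 0.126, limma). The endothelial list (1 of 1 present) lay at 2.67% to 3.24% and 2.17% to 2.76%, the biliary list (5 of 5) at 0.137% to 0.303% and 0.109% to 0.157%, and the mesenchymal list (5 of 5) at 11.5% to 14.2% and 9.81% to 13.1%. Called lower were miR-126-3p and miR-126-5p (adjusted p = 0.0236 and 0.00014, limma), and miR-200a and miR-429 of the biliary list (0.00129 and 0.00176, limma). miR-200b, miR-141 and miR-200c were not called (adjusted p = 0.0646, 0.786 and 0.616, limma). In the mesenchymal list miR-143-5p and miR-199b-5p were called lower (adjusted p = 0.0476 and 0.0128, limma) and the others were not called. The neural list (3 of 3) stayed at 0.0031% to 0.011% of reads at those ages. The part of these cell types in the fall of the cluster was not tested, and in bulk liver fewer cells of a type and less RNA per cell cannot be told apart.

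At 4 weeks, replicates 1 and 2 stood apart from replicates 3, 4 and 5 in the cluster. The median over tested entries of the log2 deviation from the mean of all libraries was −0.23 and −0.48 in those replicates against 0.53, 0.37 and 0.38 in the others. Replicate 2 also had 25.8% of its reads in the mesenchymal list, against 10.1% to 11.2% in the other 4-week libraries, and both had more reads in the striated muscle list (0.562% and 0.759%, against 0.347% to 0.38%). The split was not confined to the cluster: tested miRNAs outside it had medians of −0.10 and −0.21 against 0.13, 0.17 and 0.11. After median-ratio scaling of the libraries the cluster medians were −0.09 and −0.23 against 0.35, 0.13 and 0.25, a narrower gap. The main results that rest on the 4-week group are given with and without replicates 1 and 2. This pair was picked after its low cluster values were seen. Leaving it out raises the 4-week level by construction, so results without it are descriptions.

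Summed over its 78 entries, the cluster took a share of all miRNA reads that was smaller at each older age. At 1 day the 5 libraries had 2.05%, 1.94%, 2.08%, 1.70% and 1.99%, and at 2 weeks they had 1.53%, 2.05%, 1.58%, 1.78% and 1.36%. At 4 weeks they had 1.21%, 1.05%, 1.72%, 1.55% and 1.67%, at 8 weeks 0.907%, 1.57%, 0.959%, 1.16% and 1.38%, and at 12 weeks 0.852%, 0.914%, 0.806%, 0.978% and 0.683%. Every 12-week library was below every 1-day, 2-week and 4-week library, while neighbouring ages overlapped. The only 8-week libraries within the range of the 12-week ones were replicates 1 and 3. In RPM the sum was 19770 ± 1536 at 1 day and 8582 ± 1131 at 12 weeks (SD, n = 5), or 43.4% of the 1-day level. The 4 age steps made 26.4%, 19.6%, 22.2% and 31.8% of this fall. Without 4-week replicates 1 and 2 the step from 2 to 4 weeks made 0.765% of it and the step from 4 to 8 weeks 41.0%, so the even split rests on that pair. Without them the 4-week mean share was 1.65% in place of 1.44%, close to the 1.66% at 2 weeks.

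**Figure D1:**
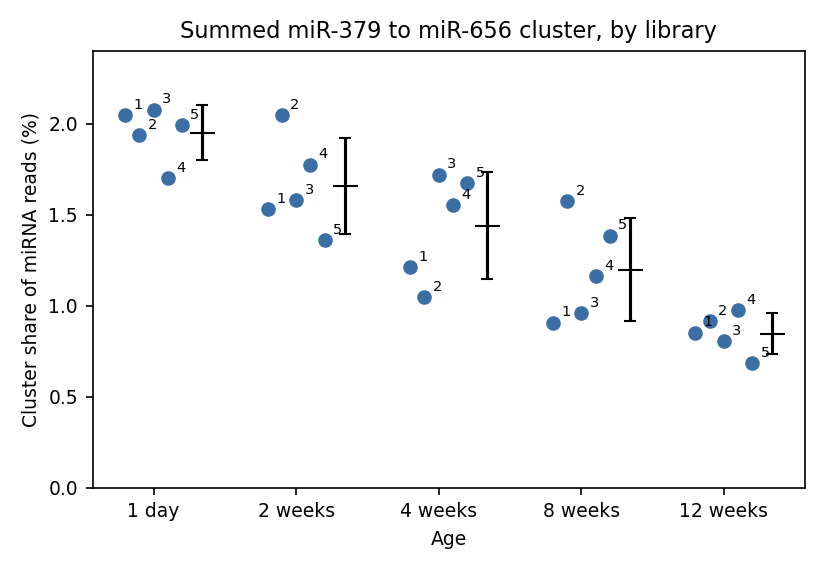
Share of all miRNA reads in the cluster (vertical axis, percent) in each library at each age (horizontal axis); numbers are replicate numbers, and the black bars are mean ± SD over 5 libraries. The mean went from 1.95% at 1 day to 0.846% at 12 weeks, and 4-week replicates 1 and 2 lie below the other 3 libraries of that age.

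A few miRNAs carried most of the signal. miR-379-5p, from the first hairpin of the run, had 3988, 4114, 4379, 3928 and 4306 RPM in the 1-day libraries and 1877, 2098, 1661, 2252 and 1784 RPM at 12 weeks. miR-411a-5p, from the next hairpin, had 3844, 3521, 3757, 3409 and 3986 RPM and then 1509, 1741, 1589, 2003 and 1548 RPM. For both, each 12-week library was under every 1-day library by a wide gap. miR-369-3p, which in human cells can bind the AU-rich element of the TNF messenger RNA, had 3195, 2922, 2851, 2386 and 2824 RPM at 1 day and 1171, 1093, 1197.5, 1198 and 775 RPM at 12 weeks. With miR-494 these 4 entries made 59.6% of the cluster's RPM at 1 day and 60.6% at 12 weeks, so the leading entries kept nearly the same joint share of a smaller total. The 10 most abundant entries at 1 day made 79.3%.

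Mean levels over all 25 libraries ran from 0.0152 to 3094 RPM within the cluster. Among the next most abundant, miR-487b-3p went from 1037 ± 97.1 to 502 ± 84.0 RPM (SD, n = 5) and miR-409-3p from 862 ± 92.9 to 348 ± 67.9 RPM. miR-380-3p went from 543.3 ± 70.8 to 229 ± 52.5 RPM and miR-3959-5p from 509 ± 74.7 to 235 ± 39.1 RPM. miR-376c-3p, of a family whose primary transcripts are edited from adenosine to inosine in human and mouse tissues, went from 508 ± 70.6 to 247 ± 38.2 RPM, and miR-495-3p from 437 ± 65.9 to 224 ± 39.4 RPM. At the other end, 13 entries did not reach 1 RPM in 5 libraries and were not tested. They were miR-154a-5p, miR-329a-5p, miR-3958-5p, miR-410-5p, miR-487a-5p, miR-487b-5p, miR-496-5p, miR-543-5p and the sheep-named miR-1193-3p, miR-1193-5p, miR-154a-3p, miR-3956-3p and miR-668-5p. Their means over all libraries were 0.0152 to 0.362 RPM. The upper limit that a count of 0 allows is 3 reads, equal to 0.251 to 0.425 RPM depending on the library (counting error only).

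At 12 weeks against 1 day, the widest span, nearly the whole cluster was lower. Of the 65 tested entries 63 fell and 0 rose (limma on log2(RPM + 1), Benjamini-Hochberg adjusted p under 0.05), and in 61 every 12-week library lay under every 1-day library. Of all 405 miRNAs tested, 54.8% were called lower, 11.6% were called higher and 44.7% lay without overlap on the lower side. The filter kept entries that were high at any age, so the count is a description of the tested entries. Their median log2 change was −1.32, against −0.54 over all 405 miRNAs and −0.36 over the 340 outside the cluster. The entries not called were the sheep-named miR-654-3p (0.612 ± 0.325 and 0.532 ± 0.245 RPM, log2 change −0.07 ± 0.26 SE, adjusted p = 0.842, limma) and miR-668-3p (2.27 ± 0.623 and 1.34 ± 0.403 RPM, −0.48 ± 0.22, adjusted p = 0.0614, limma), both near the lower limit of the table.

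**Figure D2:**
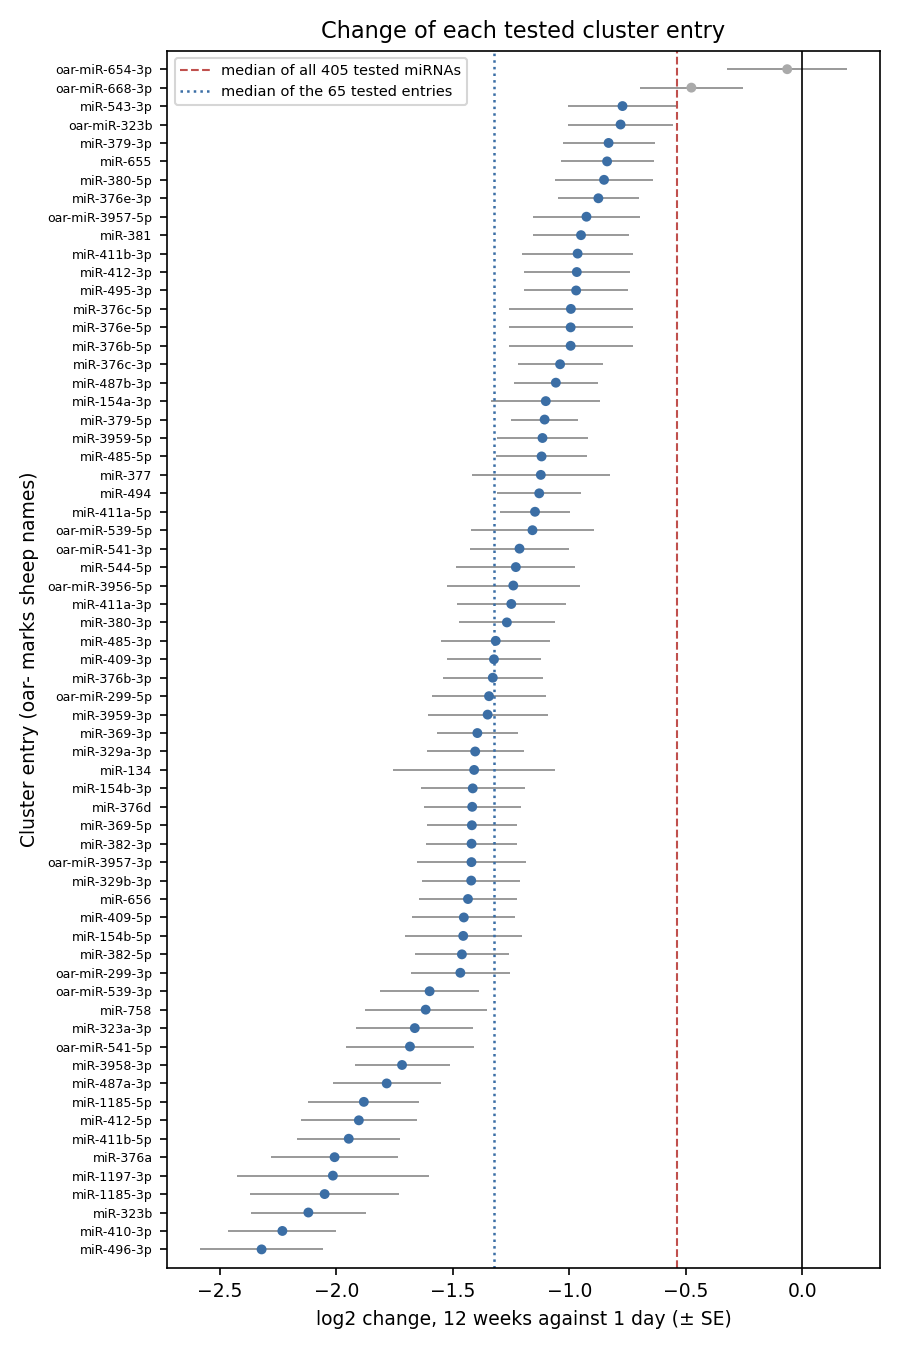
log2 change at 12 weeks against 1 day (horizontal axis, ± SE of the limma fit) of each of the 65 tested cluster entries, ordered by size; blue points passed an adjusted p of 0.05 and grey points did not. All but 2 were called, and the dotted line at −1.32 marks their median beside the dashed line at −0.54 for all 405 tested miRNAs.

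The size of the fall differed between entries. Among entries with at least 10 RPM the largest decrease was that of miR-496-3p, with 22.6, 20.9, 24.8, 11.3 and 14.98 RPM at 1 day and 3.92, 2.51, 3.15, 2.82 and 2.07 RPM at 12 weeks (log2 change −2.32 ± 0.27 SE, 4.99-fold lower, adjusted p = 6.36e-08, limma). miR-410-3p, which in mouse beta cells affects insulin release, had 364, 228, 322, 238 and 359 RPM at 1 day and 67.1, 60.4, 68.8, 87.0 and 38.6 RPM at 12 weeks (−2.23 ± 0.23, 4.69-fold lower, adjusted p = 1.82e-08, limma). The highest 12-week library of each lay well below the lowest 1-day library. miR-323b (32.5 ± 6.92 to 6.80 ± 2.00 RPM, −2.12 ± 0.25), miR-1185-3p (10.8 ± 2.49 to 1.87 ± 0.736 RPM, −2.05 ± 0.32) and miR-1197-3p (12.3 ± 2.63 to 2.4 ± 1.11 RPM, −2.01 ± 0.41) followed, with ± SD for levels and ± SE for changes.

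The smallest decreases at that level were shallower. miR-543-3p had 156, 165, 135, 115 and 140 RPM at 1 day and 83.8, 94.0, 76.4, 100 and 62.7 RPM at 12 weeks (−0.77 ± 0.23 SE, 1.71-fold lower, adjusted p = 0.00489, limma). Its groups did not overlap, though the highest 12-week library came close to the lowest 1-day one. miR-379-3p, the weaker arm of the leading hairpin, went from 135.8 ± 15.2 to 76.2 ± 11.8 RPM (−0.83 ± 0.20), miR-655 from 229 ± 30.8 to 128 ± 21.0 RPM (−0.84 ± 0.20), miR-376e-3p from 294 ± 26.8 to 161 ± 27.0 RPM (−0.88 ± 0.17) and miR-381 from 167 ± 18.8 to 86.3 ± 13.99 RPM (−0.95 ± 0.21). These 5 calls and that of miR-495-3p depended on the choice of scaling. After median-ratio scaling of the libraries, which moved the median change of all 405 miRNAs from −0.54 to −0.01, they were still below 0 (log2 changes −0.38 to −0.19) without passing the test (adjusted p = 0.0508 to 0.385, limma). With scaling over miRNAs outside the locus 5 of the 6 stayed called (adjusted p = 0.00622 to 0.0209, limma), and miR-543-3p was lost (−0.43, adjusted p = 0.0715, limma). After median-ratio scaling 52 of 65 entries were called lower and 0 higher, and their median was −0.78. Of all miRNAs 222 were called lower and 47 higher as deposited, and 132 lower and 118 higher after median-ratio scaling.

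To set these differences apart from the common fall, each library was scaled by the median ratio of the tested entries themselves, a step chosen after the data were seen. On that scale 14 entries fell further than the typical entry and 11 fell less (limma, adjusted p under 0.05 over all 405 miRNAs, of which 8.15% were below and 57.8% above). The scale is centred on the entries themselves, so estimates on either side of it are built in. The 57.8% restates that miRNAs outside the cluster fell less, and it is no yardstick for the 11. miR-496-3p was at 0.463, miR-1185-3p at 0.517, miR-410-3p at 0.565 and miR-323b at 0.57 of the level that the common change alone would leave. miR-543-3p stood at 1.55, miR-379-3p and miR-655 at 1.49, miR-376e-3p at 1.45 and miR-495-3p at 1.36 of that level. The abundant miR-379-5p, miR-411a-5p and miR-369-3p were not called on this scale. Neighbouring hairpins were split between both sides: miR-376a, in the same stretch of the run as miR-376c and miR-376e, was among the 14, and miR-376c-3p and miR-376e-3p were among the 11.

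Position in the run and name showed no sharp division, nor did level on the log2(RPM + 1) scale. The first 13 hairpins had 17 tested entries with a median log2 change of −1.25, the middle 13 had 19 with −1.23 and the last 12 had 17 with −1.41. Spearman's rho between order and change was −0.31 over 53 goat-named entries, given as a description, since entries share libraries and hairpins. Between level and change rho was 0.01 over 65 entries on the log2(RPM + 1) scale. The 1 RPM added shrinks the changes of weak entries, so a link between level and fall cannot be judged from it. The 23 entries with a mean of at least 100 RPM had a median of −1.15 and were all called lower, as were the 25 between 10 and 100 RPM with −1.42, and 15 of the 17 below 10 RPM with −1.16, a level at which log2(RPM + 1) understates a change. Goat-named entries had −1.33 (53 entries) and sheep-named −1.23 (12 entries), and 5p arms had −1.23 (21) and 3p arms −1.33 (33). The 5p arms of miR-376b, miR-376c and miR-376e differed by at most 0.42 RPM in any library at means near 33 RPM, so they may share their reads and are not independent entries.

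**Figure D3:**
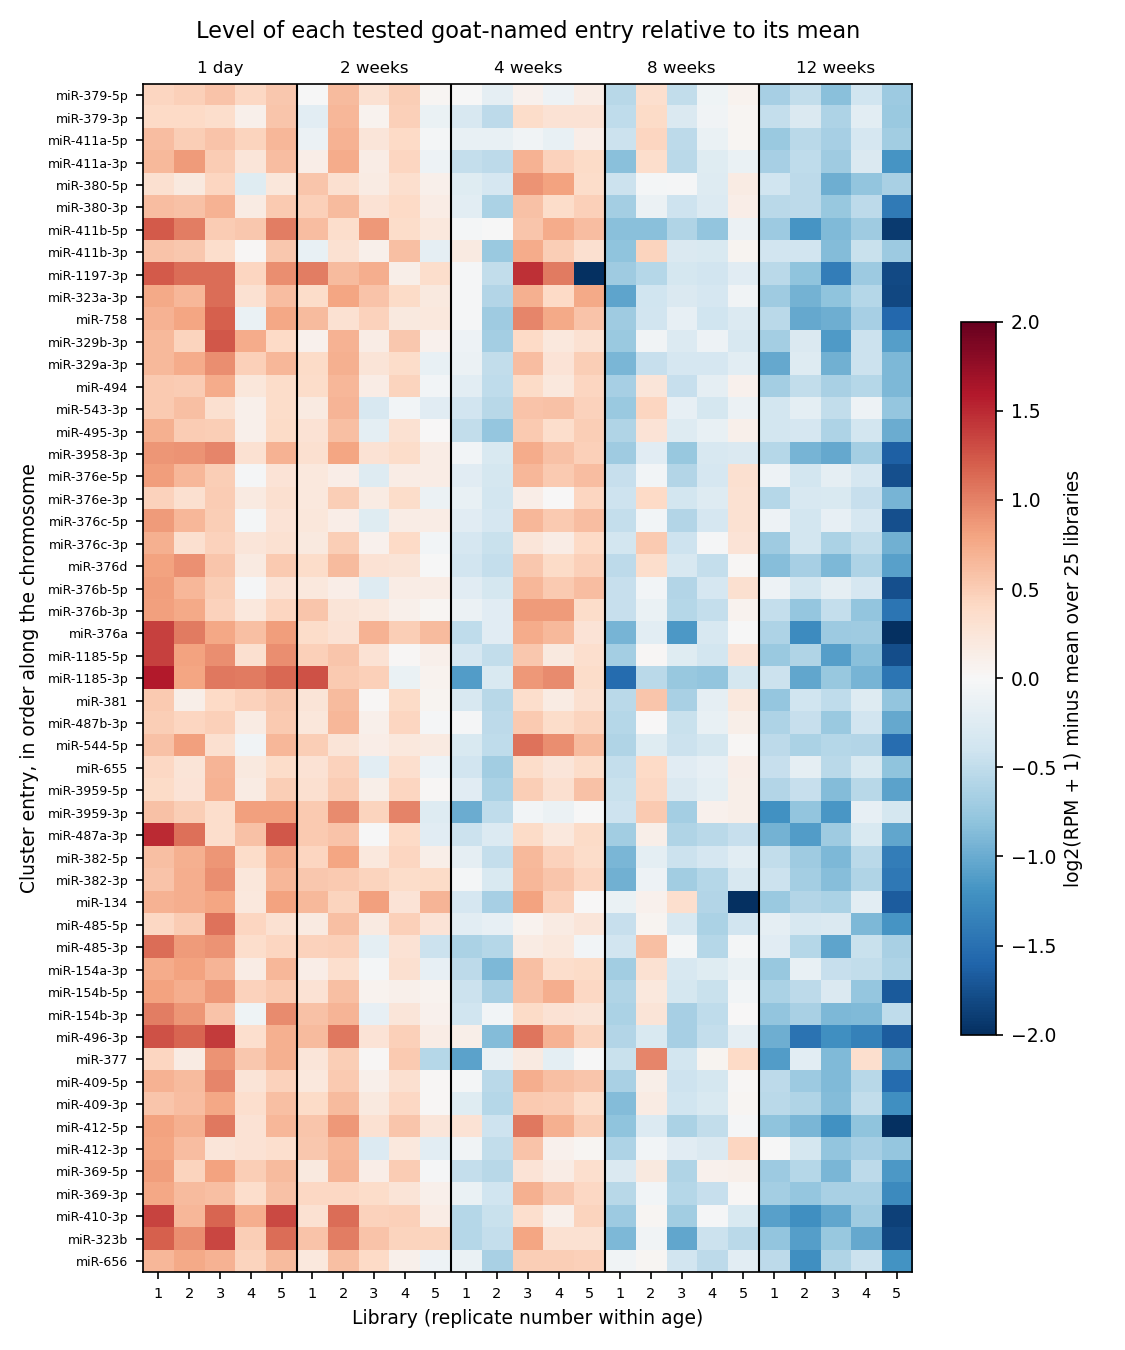
log2(RPM + 1) of the 53 tested goat-named entries minus each entry's mean over the 25 libraries (colour), with entries in their order along the chromosome (vertical axis) and libraries by age and replicate number (horizontal axis). Most columns have 1 colour from top to bottom: 4-week replicates 1 and 2 (medians over all 65 tested entries −0.23 and −0.48) differ from replicates 3 to 5, and 12-week replicate 5 (−1.15) is the lowest of all.

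Entries also rose and fell together between libraries of the same age. After each age's mean was taken out, the median Pearson correlation over pairs of the 48 entries with a mean of at least 10 RPM was 0.71 over 25 libraries, against 0.10 for pairs of the 217 other miRNAs at that level outside the locus. Without 4-week replicates 1 and 2 it was 0.61 against 0.05, and with median-ratio scaling over all 25 libraries 0.55 against 0.04. With scaling over miRNAs outside the locus it was 0.63 against −0.0019. That last scaling is set by miRNAs outside the locus, so their own low value follows in part from it. These correlations are descriptions: pairs share libraries, their depth and their scaling. In the plot of levels by library this shows as whole columns that differ from their neighbours of the same age. 12-week replicate 5 (median deviation −1.15) and 1-day replicate 4 (0.32) were the lowest libraries of their ages, and 8-week replicates 2 and 5 (0.06 and 0.02) were the highest of theirs.

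Over all 5 ages 63 of the 65 tested entries differed (limma F test, adjusted p under 0.05), against 64.7% of all 405 miRNAs, and 63 of 64 without 4-week replicates 1 and 2. The smallest p belonged to miR-411b-5p (adjusted p = 1.35e-07), miR-410-3p (1.66e-07), miR-323b (3.38e-07), miR-496-3p (3.81e-07) and miR-3958-3p (3.81e-07). The mean was highest at 1 day for 62 entries and lowest at 12 weeks for 61. It fell at every step for 45 of 65, and for 68 of the 340 tested miRNAs outside the cluster. Without 4-week replicates 1 and 2 these counts were 17 of 65 and 43 of 340, and the mean was highest at 1 day for 50 entries and lowest at 12 weeks for 61. Of the 53 tested entries with at least 10 RPM at 1 day, the median entry stood at 81.3% of its 1-day mean at 2 weeks, 73.5% at 4 weeks, 56.4% at 8 weeks and 38.3% at 12 weeks. Without 4-week replicates 1 and 2 the median at 4 weeks was 89.4%, above that at 2 weeks. The range at 12 weeks was 15.3% to 58.6%.

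Few single steps passed a test. At 2 weeks against 1 day no entry was called (limma; 9 at an unadjusted p under 0.05), while 64 of 65 estimates were below 0 with a median of −0.30 (47 of 65 and −0.10 after median-ratio scaling), and 4.69% of all miRNAs were called lower and 0.988% higher. In none were all 2-week libraries below all 1-day ones (5.43% of all miRNAs). At 4 against 2 weeks no entry was called (6 at an unadjusted p under 0.05; 1.73% of all miRNAs called lower and 1.23% higher), none was without overlap (2.22% of all), and the median went from −0.19 to 0.11 without 4-week replicates 1 and 2. At 12 against 8 weeks no entry was called (30 at an unadjusted p under 0.05; 1.23% of all called lower), with a median of −0.45, and 5 entries had no overlap (2.72% of all). The number of entries called went to 13 of 64 without 4-week replicates 1 and 2, which enter only through the shared spread and the filter (7.67% of all called lower). It was 7 without 8-week replicate 1, 5 without 8-week replicate 3 and 1 without 12-week replicate 4. Leaving out 1 library moved the count at 2 weeks against 1 day to 2 (without 1-day replicate 4) or 1 (without 1-day replicate 3 or 2-week replicate 1), and at 4 against 2 weeks to 1 (without 2-week replicate 5).

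At 8 against 4 weeks 4 entries fell and none rose, against 5.19% of all miRNAs called lower. Without overlap was 1 entry, miR-411b-5p, against 3.46% of all. miR-411b-5p, whose hairpin is parted from that of miR-411a by miR-380, had 46.3, 47.6, 70.7, 80.4 and 73.5 RPM at 4 weeks and 26.3, 26.2, 30.9, 27.0 and 43.9 RPM at 8 weeks (log2 change −1.01 ± 0.22 SE, adjusted p = 0.0108, limma). miR-412-5p had 161, 98.6, 275, 216 and 186 RPM and then 75.3, 108, 84.6, 93.6 and 129 RPM (−0.87 ± 0.25, adjusted p = 0.033, limma). The ages overlapped in miR-412-5p, through 4-week replicate 2. miR-382-3p went from 125.9 ± 33.96 to 71.7 ± 16.8 RPM (SD, n = 5; −0.79 ± 0.20 SE) and miR-3958-3p from 321 ± 93.7 to 185 ± 31.8 RPM (−0.75 ± 0.20). Without 4-week replicates 1 and 2, 37 of 64 entries were called lower, these 4 among them, against 25.7% of all miRNAs, and the median went from −0.38 to −0.68. The pair was picked for its low cluster values, so a larger fall at this step without it follows from that choice.

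The count at this step rested on single libraries too. It was 24 without 4-week replicate 2, 10 without 4-week replicate 1 and 7 without 8-week replicate 5. It was 1 without 4-week replicate 3, 4 or 5 or without 8-week replicate 1, and 2 without 8-week replicate 3. The 2 most abundant entries did not share the split: at 4 weeks miR-379-5p had 2962, 2620, 3143, 2759 and 3276 RPM and miR-411a-5p 2282, 2259, 2384, 2268 and 2773 RPM, while miR-369-3p had 1711, 1421, 3076, 2725 and 2511 RPM. In the first pair the values of replicates 1 and 2 lay among or just under those of the others, and in miR-369-3p they lay far below. They were chosen after their values were seen.

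**Figure D4:**
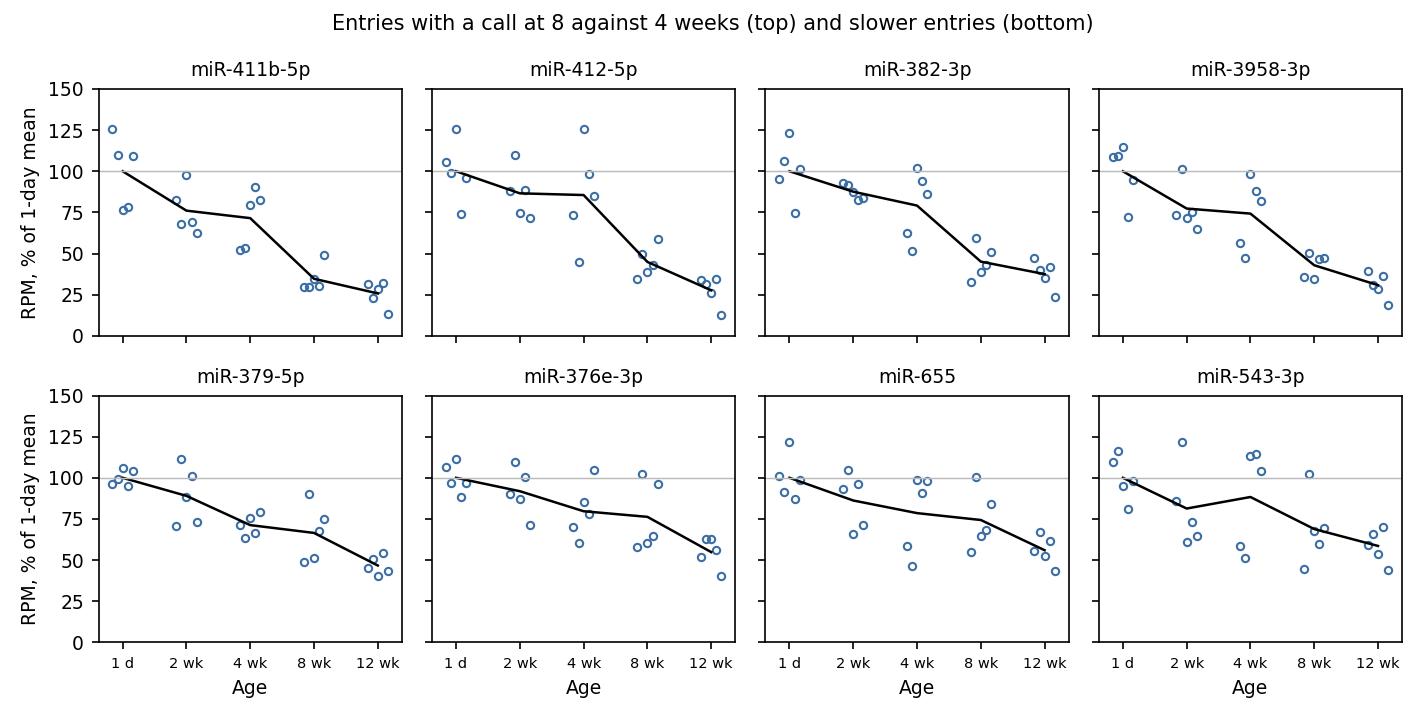
RPM as percent of the entry's 1-day mean (vertical axis) at each age (horizontal axis) for the 4 entries called at 8 against 4 weeks (top row) and 4 entries with a shallower course (bottom row); circles are libraries and the line joins the means. At 8 weeks miR-411b-5p stood at 34.7% and miR-412-5p at 44.9% of the 1-day mean, against 76.3% for miR-376e-3p and 68.9% for miR-543-3p.

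Across 8 against 2 weeks, which leaves the 4-week group out of the contrast, 30 of 65 entries fell and 0 rose (23.2% of all miRNAs called lower and 6.67% higher), and all 65 estimates were below 0. After TMM scaling 20 were called lower and 60 estimates were below 0. In 21 entries the ages did not overlap (15.6% of all). miR-411b-5p fell from 67.7 ± 12.8 to 30.9 ± 7.53 RPM (−1.12 ± 0.22 SE, adjusted p = 0.000865, limma), with 73.6, 60.7, 87.3, 61.7 and 55.5 RPM in the 2-week libraries, all above the 8-week ones. miR-382-3p (−0.98 ± 0.20), miR-323b (−1.20 ± 0.25), the sheep-named miR-541-5p (5.99 ± 1.44 to 2.29 ± 1.73 RPM, −1.19 ± 0.28) and miR-3958-3p (−0.85 ± 0.20) had the next smallest p. Among the abundant entries miR-369-3p (−0.63 ± 0.17, adjusted p = 0.00816), miR-379-5p (−0.44 ± 0.14, adjusted p = 0.0222) and miR-494 (−0.51 ± 0.18, adjusted p = 0.0316) were called, and miR-411a-5p was not (−0.36 ± 0.15, adjusted p = 0.0781, limma). Without 8-week replicate 1 the count was 19.

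The balance of the arms within a hairpin does not depend on how libraries are scaled, apart from the 1 RPM added to each value. In 19 cluster hairpins both arms were tested. At 1 day the 5p arm was the more abundant in 10 and the 3p arm in 9, and none had changed its leading arm at 12 weeks. The ratio was called changed in 2 of the 19 (limma on the log2 ratio of 5p to 3p, adjusted p under 0.05), against 22.7% of all hairpins with both arms tested. In miR-411b the 5p arm lost ground: 5p went from 89.0 ± 19.3 to 22.9 ± 6.98 RPM while 3p went from 12.7 ± 2.00 to 6.0 ± 1.03 RPM (SD, n = 5; log2 ratio 2.71 ± 0.18 to 1.72 ± 0.47, change −0.98 ± 0.24 SE, adjusted p = 0.00437). Its 3p arm fell from 14.3, 13.8, 12.0, 9.43 and 13.8 RPM to 6.84, 6.87, 4.62, 6.48 and 5.19 RPM. In miR-411a, the near relative, the log2 ratio was 3.75 ± 0.21 and 3.85 ± 0.23 (change 0.10 ± 0.18 SE, adjusted p = 0.732).

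In miR-412 the log2 ratio went from 6.37 ± 0.34 to 5.44 ± 0.50 (SD, n = 5; change −0.94 ± 0.19 SE, adjusted p = 0.000558, limma), but its 3p arm had only 1.65 ± 0.446 and 0.37 ± 0.341 RPM. That call was lost when 0.1 RPM was added in place of 1, and only miR-411b remained (−0.93, adjusted p = 0.0214, limma). With nothing added, the 12-week mean of the miR-412 3p arm was 22.5% of its 1-day mean and that of the 5p arm 27.6%. The lower ratio of miR-412 therefore rests on the 1 RPM added, and no loss of its 5p arm against its 3p arm is shown. Among hairpins picked after their values were seen, miR-369 had −4.44 ± 0.15 and −4.46 ± 0.19, miR-382 0.49 ± 0.07 and 0.44 ± 0.06, and miR-409 −2.12 ± 0.14 and −2.25 ± 0.13 (SD, n = 5). The test was not passed by any of these 3, with changes of −0.02 ± 0.13, −0.04 ± 0.10 and −0.13 ± 0.10 (SE).

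**Figure D5:**
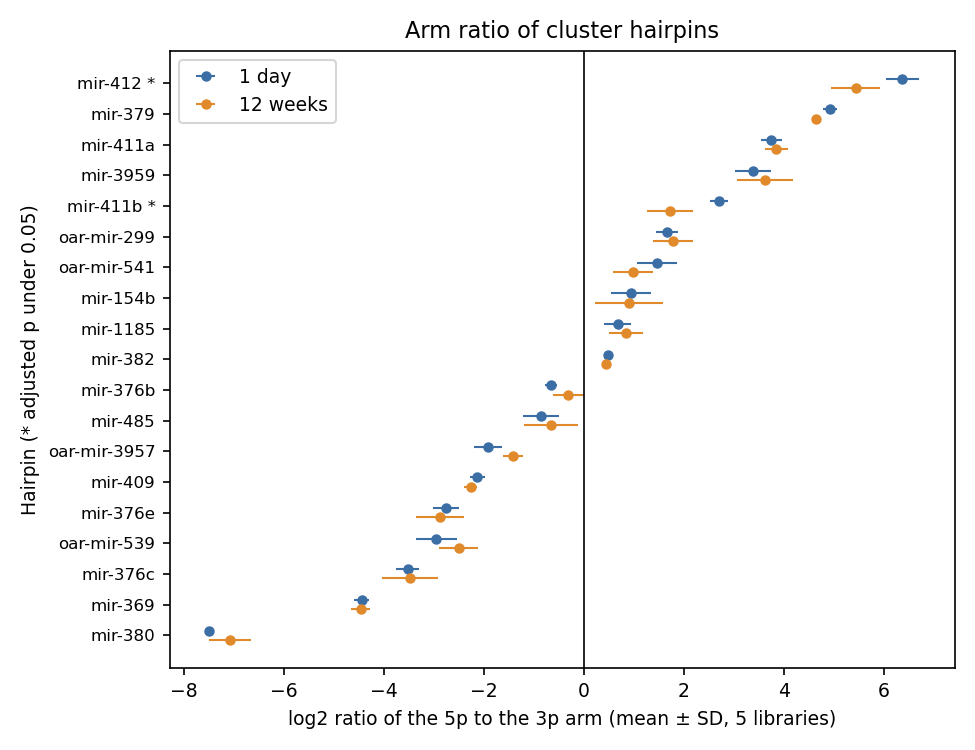
log2 ratio of the 5p to the 3p arm (horizontal axis, mean ± SD of 5 libraries, 1 RPM added to each arm) at 1 day and 12 weeks for the 19 hairpins with both arms tested; values above 0 mean more 5p. Stars mark miR-411b (2.71 to 1.72) and miR-412 (6.37 to 5.44), and no mean crosses 0. The lower ratio of miR-412 rests on the 1 RPM added.

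The other miRNAs of the locus, which lie outside the run around RTL1 and elsewhere (miR-127, miR-136, miR-370, miR-431, miR-432, miR-433, miR-493 and miR-665 had entries; miR-337, miR-770 and miR-1247 did not), were lower at 12 weeks in 12 of 12 tested entries, with a median log2 change of −1.69, against 54.8% called lower and a median of −0.54 over all 405 miRNAs. miR-127-3p, which in mouse is complementary to the Rtl1 messenger RNA, went from 1829 ± 230 to 812 ± 167 RPM and miR-136-3p from 957 ± 111 to 338 ± 57.2 RPM (SD, n = 5). Of 4 entries from other imprinted host genes 3 were lower, a share to be read against the same 54.8% (miR-335-5p of MEST, miR-483 of IGF2 and miR-296-3p of the GNAS locus). The entry not called was miR-335-3p, the other arm of the miR-335 hairpin (log2 change −0.45 ± 0.27 SE, adjusted p = 0.138, limma). The remaining miR numbers of that list had no entry.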

How the data were processed

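The table holds RPM values scaled by the authors and deposited as 1 column per library. No label names the unit, which was taken from the column sums of 1010981 to 1018216. The submitters' processing notes list Bowtie 1.1.1. Genome build, annotation and the handling of multiply matching reads: not given in the sources used here. Values were multiples of a fixed step per library (100% within 0.1 read), and this step gave each library's reads.

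Of 463 entries, the 405 that reached 1 RPM in 5 or more libraries were tested. log2(RPM + 1) was fitted with limma 3.58.1 (R 4.3.3; variance trend; 1 mean per age; 25 libraries), and Benjamini-Hochberg adjustment ran over all 405. Fold changes are on that scale, which understates low entries. Arm ratios used the same model. Fits were tested on simulated data. Named are the 10 most abundant entries, the 5 largest and 5 smallest changes at 12 weeks among entries with 10 RPM, the 5 smallest p of the F test, up to 5 per other comparison with calls, hairpins with a called arm ratio, and untested entries. Members and lists were chosen with earlier results of these data known. Alternatives were 3 scalings, 2 filters, 2 pseudocounts, fits of only the ages compared, a replicate block and left-out libraries. Python 3.11.15, pandas 2.3.3 and matplotlib 3.10.9 made sums and figures.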

Additional observations from a re-analysis of the deposited data

Results flagged for a closer look

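Within an age, 1 of 5 libraries lay far from the other 4 in 8 of 130 groups of values examined, where chance alone flags about 1 in 20. At 2 weeks replicate 2 was high for miR-410-3p (310 RPM against 159 to 198), miR-323b (32.0 against 21.0 to 23.1) and miR-3958-3p (440 against 280 to 325). At 12 weeks replicate 5 was low for miR-369-3p (775 RPM against 1093 to 1198) and the sheep-named miR-541-5p (0.58 against 1.78 to 2.26). miR-411a-5p was high in 4-week replicate 5 (2773 RPM against 2259 to 2384), miR-411b-5p in 8-week replicate 5 (43.9 against 26.2 to 30.9), and miR-487b-3p was low in 1-day replicate 4 (869 against 1041 to 1111). These are the libraries that were also the highest or lowest of their age over the cluster as a median, except 4-week replicate 5 and 8-week replicate 5.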

How the results depend on the processing

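The fall at 12 weeks against 1 day kept its direction in every alternative run for the 25 named entries: of 247 values 234 stayed called and 13 no longer passed, all 13 under another scaling, and all 250 values with 1 library left out stayed called. At 12 weeks against 1 day the count of entries called was 63 to 64 with 1 library left out. Scaling by median ratio or TMM gave 52 and by miRNAs outside the locus 62, and the split of all calls went from 222 lower and 47 higher to 132 and 118 with the median ratio. Counts for single steps moved more, and the cause was not tested. The count of entries falling at every step, 45, was 17 without 4-week replicates 1 and 2, an alternative chosen after seeing the data. At 2 weeks against 1 day (0 entries called) there was 1 without a filter, 3 with 10 RPM added and 2 without 4-week replicates 1 and 2, and 0 to 2 with 1 library left out. At 4 against 2 weeks (0) the range was 0 to 1. At 8 against 4 weeks (4) there was 1 when only these ages were fitted, 37 without 4-week replicates 1 and 2, and 1 to 24 with 1 library left out. At 12 against 8 weeks (0) the values were 1, 13 and 0 to 7. At 8 against 2 weeks (30) the range was 19 to 37. Arm ratios (2 hairpins, both lower with 1 RPM added) gave 12 without a filter, 3 lower and 9 higher, which adds hairpins with an arm near 0. They gave 9 with 10 RPM added, 1 with 0.1 RPM added, and 0 at a mean of at least 10 RPM, where neither hairpin was testable. The lower ratio of miR-412 rests on the value added to each arm.

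No pairing of libraries by replicate number was seen: deviations of 50 same-numbered pairs correlated at −0.42 to 0.33, and 1 of 25 libraries correlated best with its own number. The labels do not say whether same-numbered libraries share an origin, and these correlations cannot settle it. With the number as a block, 1 entry was called at 4 against 2 weeks, 3 at 8 against 4 weeks and 29 at 8 against 2 weeks. The planned count models edgeR and DESeq2 were not run, because the reads recovered from the RPM steps were not accepted as counts. Depth limits entries below about 0.425 RPM.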
